A study of Gallus gallus with 4 samples.

Results

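The semaphorins, plexins, slits, robos and netrin receptors are the guidance cues and receptors that steer growing axons and growing vessels. The 10 members described here were chosen by gene symbol: the class 3 semaphorins SEMA3A, SEMA3C, SEMA3D, SEMA3E and SEMA3F, the secreted ligand SLIT2, and the receptors PLXND1, UNC5B, ROBO1 and ROBO2. They carry 24 of the 37693 chicken probe sets on the array, and 13008 genes have a probe set with a single symbol. The tissue was chick chorio-allantoic membrane (CAM), the vascular membrane through which the embryo breathes. In the VEGF-A group, a plastic disc with 3 µg of human recombinant VEGF-A lay on the intact CAM of a chick embryo for 24 h from day 13, and tissue with visible new capillaries was excised at E14 from 3 embryos, with 1 array each. The control group was 1 array of pooled RNA from 3 normal CAMs of the same age. No strain, sex or further treatment was stated. The sources differ on whether the control CAMs carried a disc with solvent, so an effect of the disc cannot be told apart from that of VEGF-A.

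Guidance genes act as ligand and receptor pairs. Class 3 semaphorins are secreted and mostly bind a neuropilin, which forms a complex with a plexin that signals into the cell and usually makes the growing tip retract. SEMA3E is the exception and binds PLXND1, the plexin of endothelium, without a neuropilin in mouse. Slits bind robos, and netrins bind UNC5 receptors and DCC, with UNC5B known in mouse from arteries and from the tip cells that lead a sprout. NRP1 is also a coreceptor for VEGF-A, which ties the system to the growth factor applied here.

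The deposited values are linear signal intensities, scaled by the authors to a common trimmed mean on every array, and the median signal was between 15.3 and 17.2 on the VEGF-A arrays and 19.1 on the control array. Probe sets whose signal averaged above 11.1, the 40th percentile, entered the tests. Each gene was represented by the brightest of its probe sets, which left 10505 genes. A gene was called higher or lower if the ratio of VEGF-A CAM to control pool passed 2-fold for 2 or more of the 3 CAMs, and this 2-fold rule called 5.37% of the genes tested higher and 6.03% lower. By limma, 0% of the 22616 probe sets passed an adjusted p of 0.05 (before adjustment, 872 were higher and 546 lower with p under 0.05). The fit takes the lone control array to be as variable as those of the VEGF-A CAMs. With 3 arrays and 1, the smallest exact permutation p is 0.25. A whole CAM holds many cell types, so more cells of a type and more RNA per cell cannot be told apart. The ratio of 3' to 5' signal, a sign of RNA quality, was between 15.5 and 22.9 for actin on the VEGF-A arrays and 24.2 on the control array, and between 5.74 and 7.38 for EF1a on the VEGF-A arrays and 8.74 on the control array. For GAPDH it was between 43.2 and 66.9 on the VEGF-A arrays, where CAM 3 was level with the 67.0 on the control array, and its part in the results was not tested.

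Of the 10 members, 8 passed the filter on mean signal, and SEMA3E and SEMA3F did not. The mean of the VEGF-A CAMs and the control pool were both above the filter for 7 of the 8, while ROBO1 passed through the control pool alone, so a lower value was favoured for it by the filter. By the 2-fold rule, 0 of the 8 were higher and 0 lower in VEGF-A CAMs, against 5.37% and 6.03% of all genes tested. All 3 VEGF-A CAMs were above the control pool for 2 members, PLXND1 and SEMA3D, against 24.6% of all genes tested. All 3 were below it for SEMA3A, ROBO1 and ROBO2, against 29.8% of all genes. The median log2 ratio of the 8 members was -0.09, beside -0.07 over all genes tested. Median centring of the arrays shifted the median of all genes by 0.25, and the members' median was then 0.16. By limma, 0 members passed at an unadjusted p under 0.05, the background being 3.98% of genes higher and 2.11% lower, and adjusted p values of the members were between 0.80 and 0.99.

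**Figure D1:**
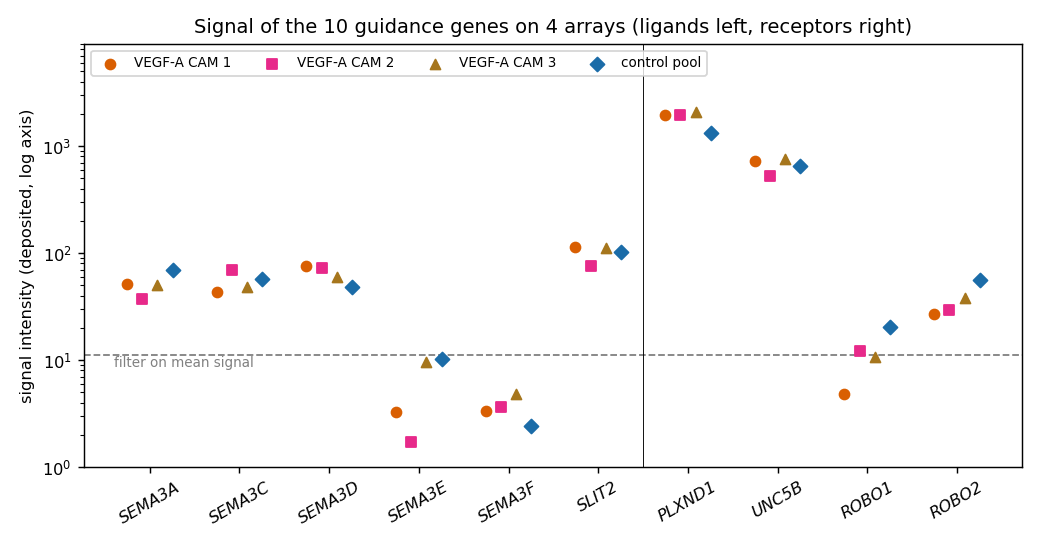
Deposited signal intensity (log axis) of the representing probe set of each of the 10 members, with 1 point per array: VEGF-A CAMs 1, 2 and 3, then the control pool. PLXND1 and SEMA3D have all 3 VEGF-A points above the control point, SEMA3A, ROBO1 and ROBO2 have all 3 below, and SEMA3E and SEMA3F lie under the filter of 11.1 (dashed line) in their mean.

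Among the secreted ligands, SEMA3A is the semaphorin first purified from chick brain for its collapse of axon growth cones, and it binds NRP1. Its signal was 51.0, 37.0 and 50.5 in VEGF-A CAMs 1, 2 and 3, against 69.8 in the control pool. Every VEGF-A CAM was lower, with CAM 2 the lowest. With a mean log2 ratio of -0.61 (95% interval -1.55 to 0.33, limma adjusted p = 0.86), SEMA3A did not pass the test.

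SEMA3D, which guides endothelial cells of the pulmonary veins in mouse, had signals of 75.0, 71.9 and 59.5 in VEGF-A CAMs 1, 2 and 3, against 48.4 in the control pool. All 3 VEGF-A CAMs were above the control, by 1.42 ± 0.17 times (SD, n = 3 CAMs). The mean log2 ratio of 0.50 (95% interval -0.37 to 1.37, limma adjusted p = 0.86) did not pass the test. A second SEMA3D probe set past the filter read 43.7, 24.8 and 35.0 in VEGF-A CAMs 1, 2 and 3, against 58.3 in the control pool. Here all 3 VEGF-A CAMs were below the control, with a mean log2 ratio of -0.80 (limma adjusted p = 0.85). The direction of SEMA3D therefore depends on the probe set, and the mean of both was -0.15. The third SEMA3D probe set was dim on every array, with 0.948, 0.990 and 0.696 in VEGF-A CAMs and 0.875 in the control pool.

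SEMA3C, needed in mouse for the septum of the cardiac outflow tract, had signals of 43.1, 69.9 and 47.8 in VEGF-A CAMs 1, 2 and 3, against 57.3 in the control pool. CAM 2 was above the control and CAMs 1 and 3 below it. The mean log2 ratio was -0.13 (95% interval -1.13 to 0.87, limma adjusted p = 0.95), and it was 0.12 with median centring and -0.65 when both of its probe sets were averaged. The dim second probe set had 7.01, 16.7 and 4.42 in VEGF-A CAMs 1, 2 and 3, against 18.1 in the control pool. It too was highest in CAM 2 among the VEGF-A CAMs, and CAMs 1 and 3 were more than 2-fold lower. It passed the filter through the control pool alone, its VEGF-A mean being 9.37, so it is given as a description.

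SLIT2, the ligand of ROBO1 and ROBO2, had signals of 115, 75.4 and 111 in VEGF-A CAMs 1, 2 and 3, against 102 in the control pool. CAMs 1 and 3 lay slightly above the control and CAM 2 below it. Over the CAMs the log2 ratio averaged -0.05 (95% interval -0.97 to 0.87, limma adjusted p = 0.98), and it was 0.20 with median centring. At the deposited scaling the interval lies within 2-fold in either direction, and no interval is given for median centring. SLIT2 had 1 probe set.

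The PLXND1 ligand SEMA3E had signals of 3.26, 1.70 and 9.54 in VEGF-A CAMs 1, 2 and 3, against 10.2 in the control pool. SEMA3F, which binds NRP2, had 3.33, 3.62 and 4.81 in VEGF-A CAMs 1, 2 and 3, against 2.44 in the control pool. Neither gene passed the filter. The 20th percentile of all chicken signals was 3.12, and 1 of the SEMA3E values and 1 of the SEMA3F values lay under it, so their levels were near the bottom of the array and no fold change is given. Without the filter, SEMA3E would count as lower by the 2-fold rule, through CAMs 1 and 2. In the chicken annotation (RefSeq, assembly GRCg7b, used for names and order only), SEMA3D, SEMA3A and SEMA3E are neighbours in that order among protein-coding genes. At their representing probe sets SEMA3D read above the control pool, SEMA3A below it, and SEMA3E was dim.

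Among the receptors, PLXND1 transmits the SEMA3E signal in endothelium. Its signal was 1960.2, 1971 and 2060.4 in VEGF-A CAMs 1, 2 and 3, against 1316 in the control pool. The VEGF-A CAMs were 1.52 ± 0.04 times the control (SD, n = 3 CAMs), and none reached 2-fold. This gave a mean log2 ratio of 0.60, or a fold of 1.52 with a 95% interval of 0.997 to 2.31 (limma unadjusted p = 0.051, adjusted p = 0.80). It was 0.61 after quantile normalization and 0.86 with median centring. The 3 VEGF-A CAMs lay close together, with an SD of log2 signal of 0.04 against a median of 0.33 over all genes, and 1.29% of the genes tested had an SD this small or smaller. That spread covers the VEGF-A arrays only, since the control has 1 array.

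A second PLXND1 probe set, of the kind that can match several transcripts (suffix s), had dim signals of 10.1, 13.0 and 11.5 in VEGF-A CAMs 1, 2 and 3, against 19.4 in the control pool. All 3 VEGF-A CAMs were lower there (mean log2 ratio -0.75, 95% interval -2.69 to 1.18, limma adjusted p = 0.87). The mean of both probe sets was -0.08, so the PLXND1 ratio holds for the bright probe set only.

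UNC5B, the netrin receptor, had signals of 726, 525 and 751 in VEGF-A CAMs 1, 2 and 3, against 649 in the control pool. CAMs 1 and 3 were above the control and CAM 2 below it. Over the CAMs the log2 ratio averaged 0.02 (95% interval -0.76 to 0.80, limma adjusted p = 0.99), and it turned to -0.02 after quantile normalization. A second bright probe set read 397, 331 and 351 in VEGF-A CAMs 1, 2 and 3, against 320.1 in the control pool, a mean log2 ratio of 0.16 (95% interval -0.57 to 0.90, limma adjusted p = 0.92). At the deposited scaling, the intervals of both probe sets lie within 2-fold in either direction. UNC5B and SLIT2 were the 2 members whose representing probe set has such an interval. With median centring the UNC5B mean was 0.28, and no interval is given for that setting.

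ROBO2 is a receptor for slits. Its signal was 27.1, 29.2 and 37.7 in VEGF-A CAMs 1, 2 and 3, against 55.7 in the control pool. Each VEGF-A CAM was lower, and CAM 1 alone was more than 2-fold lower. ROBO2 had a mean log2 ratio of -0.84 (95% interval -1.87 to 0.18, limma adjusted p = 0.85), which was below 0 in all 12 alternatives, between -1.13 and -0.47. Of these, the floor at the 20th percentile, the changed filters and limma without a trend left the ratio as it was. A second, dim ROBO2 probe set past the filter read 13.5, 4.83 and 15.8 in VEGF-A CAMs 1, 2 and 3, against 26.8 in the control pool. It was also lower in each (mean log2 ratio -1.41, limma adjusted p = 0.86), and its VEGF-A mean of 11.4 was close to the filter of 11.1. Represented by the mean of its probe sets past the filter, ROBO2 passed the 2-fold rule as lower. Of its 3 dimmer probe sets, 2 were lower in all 3 VEGF-A CAMs and 1 higher.

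Among protein-coding genes, ROBO1 lies next to ROBO2 with a single uncharacterised gene between them. ROBO1 was dim at its brightest probe set, with 4.79, 12.2 and 10.6 in VEGF-A CAMs 1, 2 and 3, against 20.4 in the control pool. Each VEGF-A CAM was lower, CAM 1 the most. It passed the filter through the control pool alone, its VEGF-A mean being 9.19. ROBO1 had a mean log2 ratio of -1.26 (95% interval -3.86 to 1.34), with the widest interval of the 8 members. The 5 other ROBO1 probe sets were under the filter. A probe set of the opposite orientation to the brightest one, from the same clone, had 15.7, 10.9 and 11.4 in VEGF-A CAMs 1, 2 and 3, against 3.45 in the control pool. There all 3 VEGF-A CAMs were higher. The probe set next in brightness to the representing one read 10.5, 8.81 and 7.57, against 14.9 in the control pool, lower in each. Another was also lower in each, with 7.63, 3.51 and 5.45 against 10.9. The dimmest was higher in each, with 8.79, 1.67 and 2.01 against 0.883, and the remaining probe set was mixed. The mean of all 6 ROBO1 probe sets was 0.14, in which dim probe sets count as much as the brightest, so no direction can be given for ROBO1.

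**Figure D2:**
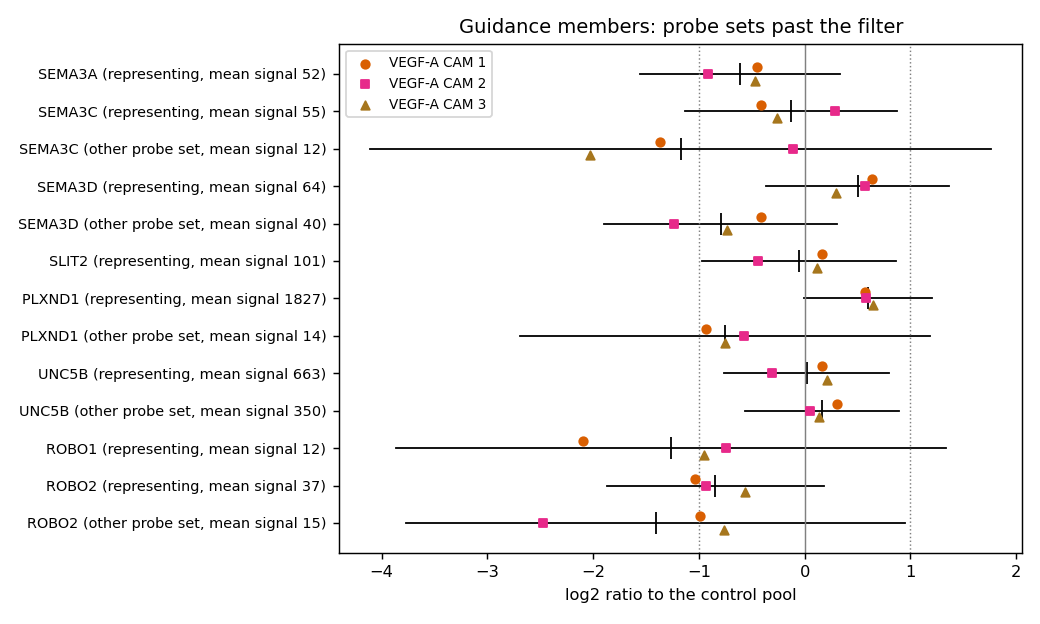
Log2 ratio to the control pool of the 13 member probe sets past the filter: points are VEGF-A CAMs 1, 2 and 3, the bar their mean and the line its 95% interval from limma, with dotted lines at 2-fold. Every interval of a probe set includes 0, and the second probe sets of SEMA3D and PLXND1 lie on the other side of 0 from the representing ones.

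Probe sets of a gene did not always run together. Of the 5 members with more than 1 probe set past the filter, SEMA3D and PLXND1 had their 2 brightest probe sets on opposite sides of the control in all 3 VEGF-A CAMs. Over all 4433 genes with at least 2 such probe sets, this was so for 9.97%. ROBO2 had both lower, and UNC5B and SEMA3C had 1 of the 2 mixed.

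VEGF-A CAM 2 was the lowest of the VEGF-A CAMs for SEMA3A, SLIT2 and UNC5B and the highest for SEMA3C and ROBO1. It was the lowest or the highest for 5 of the 8 members, 62.5%, against 73.8% of all genes tested, so the members did not stand out in this. Of 18 blood endothelial markers measured, 14 were higher by the 2-fold rule and 0 lower, against 5.37% and 6.03% of all genes tested. Several, such as TEK, KDR and CDH5, are in the list that the study chose on these arrays, so their direction is no independent evidence. PTPRB, also called higher, had 9.57 in the control pool, under the filter of 11.1, so the filter favoured its call. Of those not called, VWF had a mean log2 ratio of 0.48, and EGFL7, ESAM and TAL1 had -0.47, -0.43 and -0.47. EMCN and ROBO4, of the same list, were under the filter. The markers had a median log2 ratio of 1.53, 0.68 and 1.37 in VEGF-A CAMs 1, 2 and 3. Their summed signal was 8259 in CAM 2 and 13611 and 14400.0 in CAMs 1 and 3, against 6374 in the control pool. Most of the markers were lowest in CAM 2 among the VEGF-A CAMs, but TEK, FLT1, VWF and PTPRB were not. PLXND1, at log2 ratios of 0.57, 0.58 and 0.65, was not lowest in CAM 2 either. The part of endothelial content in any member's ratio was not tested.

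Other cell types were read in the same way. Of 5 lymphatic markers 3 were higher and 0 lower, with a median log2 ratio of 1.09. For this count and those of the lists below, the shares over all genes tested were 5.37% higher and 6.03% lower. FLT4, PROX1 and STAB1 passed the 2-fold rule, while LYVE1 had a mean log2 ratio of 0.33 and PDPN one of -0.58, below the control pool in all 3 VEGF-A CAMs. STAB1 had 10.2 in the control pool, under the filter of 11.1, so the filter favoured its call. The summed signal of the lymphatic markers was between 1065 and 1244 in VEGF-A CAMs and 483 in the control pool. Of 9 fibroblast markers 2 were higher and 1 lower, and their sum was between 36818 and 53010.1 in VEGF-A CAMs, against 28353 in the control pool. The lower gene, PDGFRA, had 7.53, 18.4 and 5.44 in VEGF-A CAMs 1, 2 and 3, against 21.9 in the control pool. It passed the filter through the control pool alone. Epithelial markers (0 of 10 higher, 1 lower) summed to between 34640.2 and 52663 in VEGF-A CAMs, against 47426 in the control pool. Smooth muscle and pericyte markers (0 of 6 higher, 0 lower) summed to between 2082 and 2980 in VEGF-A CAMs, against 2294 in the control pool. Markers of neurons and Schwann cells, which use the same guidance genes, had 1 of 8 higher and 1 lower. Their sum was between 169 and 277 in VEGF-A CAMs, against 302 in the control pool. The higher gene, SOX10, was under the filter of 11.1 in the control pool, so the filter favoured its call. In VEGF-A CAM 2 it was below the control pool. EPCAM and CDH1 of the epithelium and CDH5 and KDR of endothelium were bright on every array. The part of any of these cell types in the members' ratios was not tested.

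The rest of the guidance system was taken from a list of 55 genes, of which 45 have a probe set and 37 passed the filter. By the 2-fold rule 3 were higher and 2 lower, 8.11% and 5.41% of the 37, against 5.37% and 6.03% of all genes. Of these calls, 1 of the higher (UNC5D) and 2 of the lower (NTN1 and MICAL2) passed the filter only through the group in which they were high, so the filter favoured them and they are given as a description. Their median log2 ratio was 0.09. All 3 VEGF-A CAMs were above the control pool for 14 of the 37 genes and below it for 5, against 24.6% and 29.8% of all genes tested. By limma 0 passed after adjustment over the whole array. With an unadjusted limma p under 0.05, 3 of the 37 were higher (NRP1, DPYSL2 and UNC5D), against 3.98% of all genes. Of the 33 above the filter in both groups, 2 were (NRP1 and DPYSL2), against 333 of 9874 such genes among all tested.

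At their representing probe sets, the neuropilins, coreceptors for class 3 semaphorins and VEGF-A, were both above the control pool in all 3 VEGF-A CAMs. NRP1 had signals of 1908, 1450.3 and 2307 in VEGF-A CAMs 1, 2 and 3, against 1039 in the control pool, and only CAM 3 was more than 2-fold higher. The mean log2 ratio was 0.84 (limma standard error 0.33, unadjusted p = 0.038, adjusted p = 0.77). A second NRP1 probe set read 238, 109 and 174 in VEGF-A CAMs 1, 2 and 3, against 85.3 in the control pool, and passed the 2-fold rule. The study chose that probe set on these arrays, so its direction is not independent evidence. CAM 2 was the lowest VEGF-A CAM at both. NRP1 was called higher with median centring and with the mean of its probe sets. NRP2, the coreceptor of SEMA3F and of the lymphatic VEGF-C, had 453, 865 and 513 in VEGF-A CAMs 1, 2 and 3, against 386 in the control pool. Here CAM 2 was the highest. The mean log2 ratio was 0.60 (limma adjusted p = 0.86). The other NRP2 probe sets were dim and under the filter. Both were below the control pool in all 3 VEGF-A CAMs, with mean log2 ratios of -1.104 and -1.734. The NRP2 direction therefore holds for the bright probe set only.

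Among other plexins, PLXNA2 had signals of 175, 165 and 217 in VEGF-A CAMs 1, 2 and 3, against 121 in the control pool. All 3 were above the control, as at the 2 next probe sets of PLXNA2, but none at the representing one reached 2-fold (mean log2 ratio 0.61, limma adjusted p = 0.85). The dimmest PLXNA2 probe set, under the filter, was lower in each, with 8.11, 2.45 and 12.2 against 19.4. PLXNA1, a partner of NRP1, had 146, 238 and 176 in VEGF-A CAMs 1, 2 and 3, against 162 in the control pool, on both sides of it. Its next probe set past the filter was lower in each, with 55.6, 34.9 and 59.4 against 81.4. Another past the filter had 41.7, 3.68 and 42.0 against 18.9, higher by the 2-fold rule though CAM 2 was below the control. No common direction can be given for PLXNA1. Of the 7 plexins measured, 0 passed the 2-fold rule in either direction, and of the 11 semaphorins measured, 0 did. Over all genes tested 5.37% were called higher and 6.03% lower, so counts of 0 among so few genes lie near the background.

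SRGAP1, a protein that acts below robos inside the cell, was higher by the 2-fold rule. Like NRP1, it is in the list that the study chose on these arrays, and its direction is no independent evidence. Its signal was 393, 156 and 323 in VEGF-A CAMs 1, 2 and 3, against 143 in the control pool. CAMs 1 and 3 were more than 2-fold higher and CAM 2 was not, so the call rests on those CAMs, and it was lost with the mean of the gene's probe sets (mean log2 ratio 0.92, limma adjusted p = 0.85). UNC5D, a receptor of the same family as UNC5B, had 33.3, 17.3 and 16.5 in VEGF-A CAMs 1, 2 and 3, against a dim 3.74 in the control pool, and a mean log2 ratio of 2.50. It was not called with 32 added to each signal. NTNG2, a membrane-anchored netrin G, had 35.0, 11.0 and 47.3 in VEGF-A CAMs 1, 2 and 3, against 17.1 in the control pool, and CAM 2 was below the control. Its other probe sets were dim and under the filter. Both were below the control pool in all 3 VEGF-A CAMs, with mean log2 ratios of -1.86 and -0.42. The NTNG2 call was lost with the mean of all probe sets and with 32 added to each signal. The SRGAP1 and NTNG2 calls were lost without CAM 1 and without CAM 3.

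The 2 genes called lower were dim. NTN1, the netrin that binds UNC5B and DCC, had 10.5, 10.4 and 10.4 in VEGF-A CAMs 1, 2 and 3, against 23.1 in the control pool (mean log2 ratio -1.15). MICAL2, an actin-oxidising enzyme of a family that acts below plexins, had 7.34, 14.2 and 8.88 in VEGF-A CAMs 1, 2 and 3, against 19.8 in the control pool, and its call was lost without CAM 1 and without CAM 3. The NTN1 and MICAL2 calls were absent after quantile normalization and with median centring. NTN4 had 10.4, 24.3 and 4.18 in VEGF-A CAMs 1, 2 and 3, against 18.2 in the control pool, in no common direction. Its other probe set, dim and under the filter, was lower in each, with 4.53, 0.989 and 7.82 against 9.61. With the mean of all probe sets, NTN4 was called lower. ROBO4, the endothelial robo, was under the filter, with 3.55, 0.877 and 2.20 in VEGF-A CAMs and 5.41 in the control pool.

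SLIT3, a relative of SLIT2, was chosen for mention after its values were seen. It had 573, 624 and 467 in VEGF-A CAMs 1, 2 and 3, against 332 in the control pool. Each VEGF-A CAM was higher, unlike for SLIT2, though the difference between the genes was not tested (mean log2 ratio 0.73, limma adjusted p = 0.80). Its second probe set read 327, 449.97 and 260.3 in VEGF-A CAMs 1, 2 and 3, against 197 in the control pool, in the same direction in each. A dim SLIT3 probe set past the filter was mixed, with 10.8, 27.5 and 2.93 against 13.4 (mean log2 ratio -0.49). The dimmest, under the filter, was below the control pool in all 3 VEGF-A CAMs (mean log2 ratio -1.58). The SLIT3 direction therefore holds for the bright probe sets only. DPYSL2, a cytoplasmic mediator of semaphorin signalling also named here for its value, had 289, 178 and 190.1 in VEGF-A CAMs 1, 2 and 3, against 99.3 in the control pool, with a mean log2 ratio of 1.11 (limma adjusted p = 0.72).

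**Figure D3:**
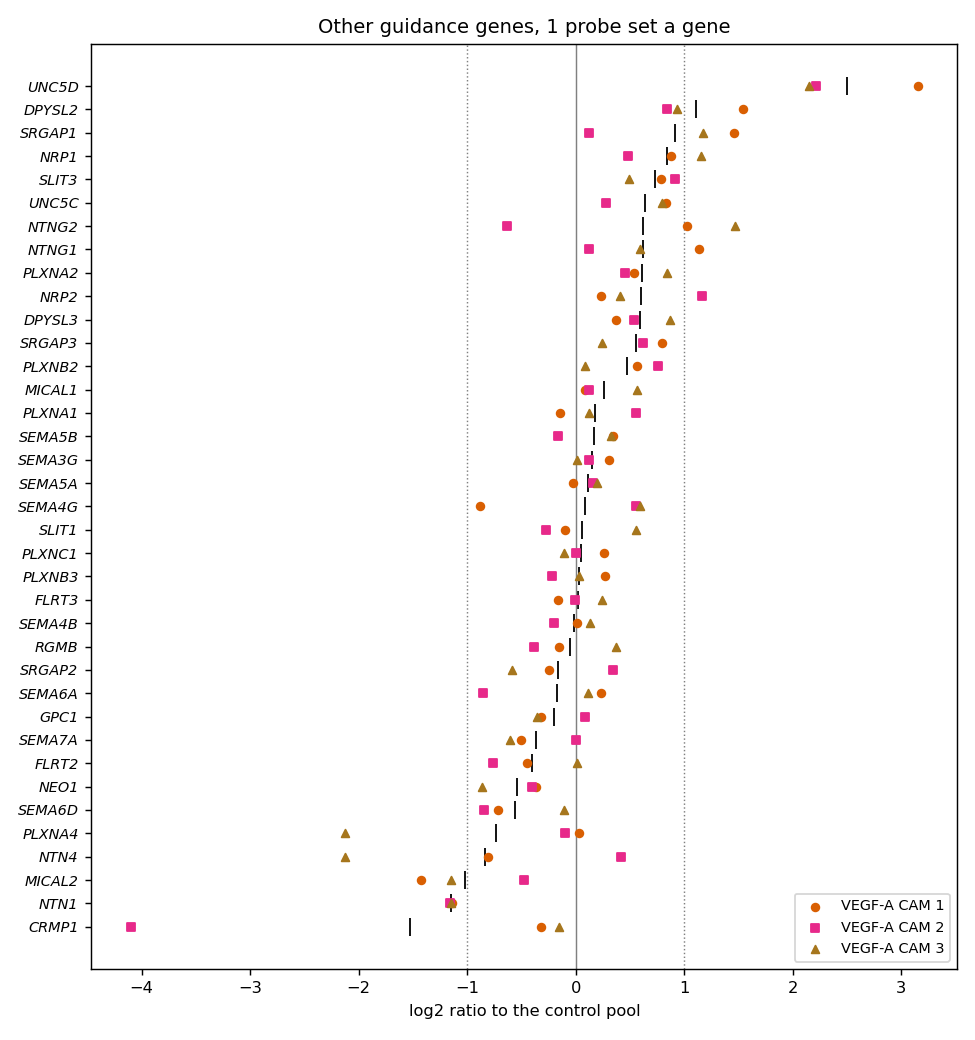
Log2 ratio to the control pool of the 37 other guidance genes past the filter, 1 probe set a gene, ordered by their mean (bar), with a point for each VEGF-A CAM and dotted lines at 2-fold. UNC5D, with a mean of 2.50 over a dim control, and CRMP1 stand at the ends, and most genes lie within 2-fold. CRMP1, named after its values were seen, is far below the control pool in CAM 2 and slightly below it in CAMs 1 and 3. It passed the filter through the control pool alone.

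**Figure D4:**
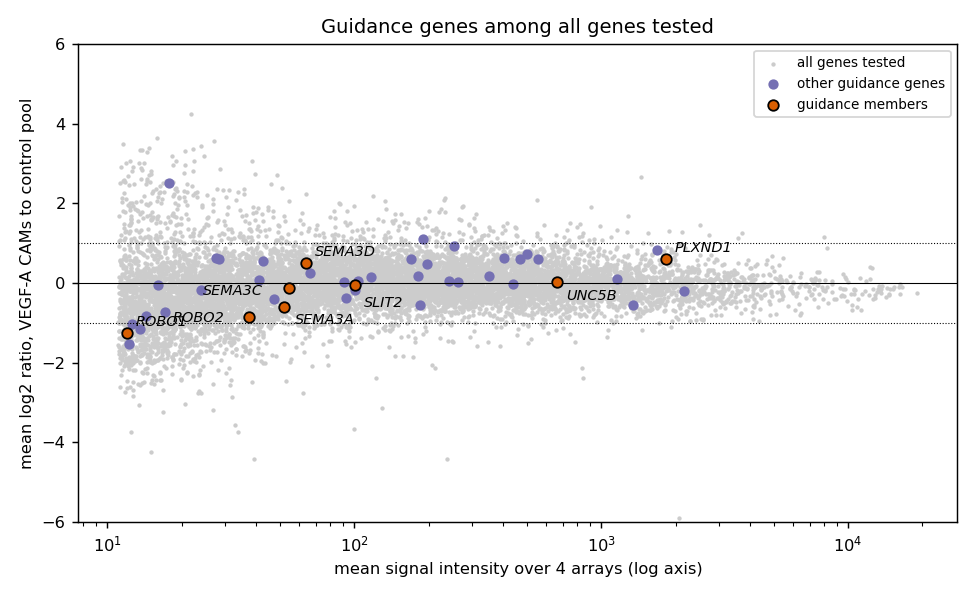
Mean log2 ratio of VEGF-A CAMs to the control pool against the mean signal over the 4 arrays (log axis), for all 10505 genes tested, with the 37 other guidance genes and the 8 members marked and dotted lines at 2-fold. Ratios scatter more at low signal, where ROBO1 lies, and PLXND1 at 0.60 stands among bright genes.

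**Figure D5:**
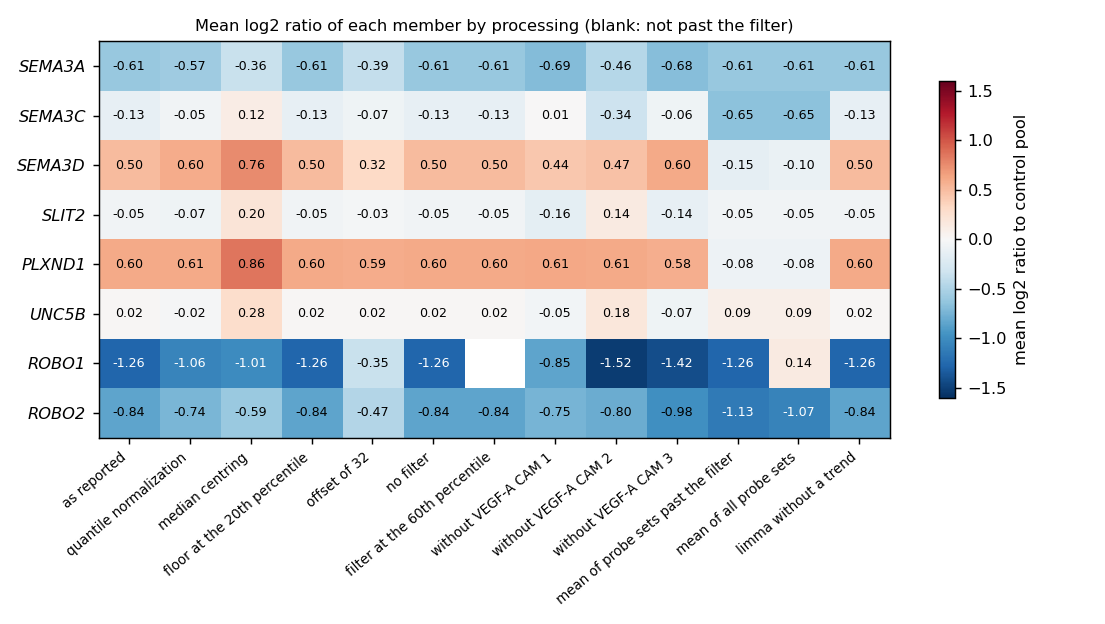
Mean log2 ratio to the control pool of the 8 members (rows) as reported and under each of the 12 alternatives (columns), coloured from lower (blue) to higher (red) in VEGF-A CAMs, with the value in each cell and a blank for ROBO1 under the filter at the 60th percentile. SEMA3A and ROBO2 are negative in every column, while SEMA3C (between -0.65 and 0.12), SLIT2 and UNC5B take both signs, and SEMA3D, PLXND1 and ROBO1 change sign where probe sets are averaged. The columns for the floor, the changed filters and limma without a trend repeat the reported values.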

How the data were processed

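RNA of 4 CAM samples was hybridised to Affymetrix chicken arrays, 3 of single VEGF-A CAMs and 1 of a pool of 3 control CAMs. Per array, the authors deposited the signal intensity of every probe set, linear and scaled to a common 2% trimmed mean, and the submitters' processing notes name GCOS 1.2. The study's selection also used detection calls, and a filter on mean signal stands in for them here. Of 38535 probe sets, 37693 are of the chicken. Symbols came from the platform table (27166 probe sets with 1 symbol, 177 with several, 10350 with none), and all 10 members matched RefSeq by Entrez ID and symbol. A probe set with several symbols named no gene. The suffix s, given above for the second PLXND1 probe set, is also carried by others. Among them are the representing probe sets of NRP1, UNC5D, MICAL2 and NTN4, and the second of ROBO2.

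Log2 ratios to the control pool were taken in R 4.3.3, and limma 3.58.1 was fitted with a variance trend (2 residual and 5.23 prior degrees of freedom) with Benjamini-Hochberg adjustment over all probe sets past the filter. Figures used Python 3.11.15 and matplotlib 3.10.9. The functions were tested on simulated data. Nothing in the labels places the VEGF-A CAMs in batches, and precision is limited by having 4 arrays.

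The members and lists were chosen with earlier results of these data known. Named genes are the members, other guidance genes past the 2-fold rule, and NRP1, NRP2, PLXNA1, PLXNA2, ROBO4, NTN1, NTN4 and SRGAP1, and SLIT3, DPYSL2 and CRMP1 were added after their values were seen. Alternatives were quantile normalization, median centring, a floor at the 20th percentile, the addition of 32 to each signal, a filter at the 60th percentile or none, other choices of probe set, limma without a trend, and leaving out each VEGF-A CAM. Marker lists for blood and lymphatic endothelium, smooth muscle and pericytes, fibroblasts, epithelium, red blood cells, leukocytes and neurons were read as counts and sums, with 0 of 4 red blood cell markers and 0 of 9 leukocyte markers past the 2-fold rule.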

Additional observations from a re-analysis of the deposited data

How the results depend on the processing

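Of 95 member ratios recomputed under the alternatives, 83 kept their direction, 12 changed direction, and 0 passed limma at an adjusted p of 0.05. These counts take no account of the 2-fold threshold, which the mean ratios of ROBO1 and ROBO2 crossed under some alternatives. The floor, the changed filters and limma without a trend left the member ratios as they were. Averaging probe sets cannot change a gene with 1 probe set. The 83 thus includes ratios that could not change direction, and is no measure of robustness. UNC5B was -0.017 after quantile normalization, 0.28 with median centring and -0.073 to 0.18 with a CAM left out. SEMA3C was 0.12 with median centring and -0.34 to 0.011 with a CAM left out, and -0.65 when its probe sets were averaged. SLIT2 was 0.20 with median centring and -0.16 to 0.14 with a CAM left out. As the mean of probe sets past the filter SEMA3D was -0.15 and PLXND1 -0.076, and as the mean of all probe sets SEMA3D was -0.10, PLXND1 -0.076 and ROBO1 0.14. The cause was not tested beyond the opposite probe sets.

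Of the members, 1 was called lower with no filter (SEMA3E) and 1 with the mean of probe sets past the filter or of all probe sets (ROBO2), and 0 were called higher under any alternative. The member median was 0.16 with median centring and -0.38 with the mean of probe sets past the filter.

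Over all genes, the 2-fold rule called 941 higher and 368 lower with median centring, 141 and 99 with the offset of 32, 1061 and 1398 with no filter, and 335 and 259 with the filter at the 60th percentile, against 564 and 633. Higher genes were 47.1% of these calls as reported, 59.1% after quantile normalization and 71.9% with median centring. With a CAM left out, which asks for both remaining comparisons, between 316 and 390 were higher and between 270 and 320 lower. Without VEGF-A CAM replicate 1, limma called 1 probe set lower (0 to 1 with a CAM left out) and 0 higher.

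Of the other guidance genes, the 2-fold rule called 7 higher and 0 lower with median centring, 0 lower after quantile normalization, 1 higher and 0 lower with the offset of 32, 5 higher and 6 lower with no filter, 0 lower with the filter at the 60th percentile, and 5 higher with the mean of probe sets past the filter. With a CAM left out, between 1 and 3 were higher and between 1 and 2 lower, where UNC5D and NTN1 were called each time and SRGAP1, NTNG2 and MICAL2 without VEGF-A CAM 2 alone. Their median was 0.34 with median centring, 0.17 with the filter at the 60th percentile, 0.029 with the mean of probe sets past the filter, -0.021 with the mean of all probe sets and between 0.068 and 0.15 with a CAM left out. No paired analysis was possible because the control is a single pooled array with no replicate number.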
